A study of Meleagris gallopavo with 3 samples.

Results

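The enzymes described here carry glucose through glycolysis to pyruvate and lactate, pass pyruvate into the citrate cycle, store and release glycogen, and buffer ATP through creatine. A list of 47 gene symbols was chosen with earlier results of these data known. Shares set beside those of all genes below therefore describe the list and are not tests. The 47 symbols were matched exactly to those of the deposited table of 23976 genes, a step that used no expression values, and 32 were found. The other 15 (HK1, PFKP, PFKM, PFKFB4, ALDOA, ENO3, LDHA, PDK3, PC, CS, FBP2, GYS1, GBE1, PYGB and CKM) were not analysed here. They include the isozymes that are typical of mature skeletal muscle (PFKM, ALDOA, ENO3, LDHA and CKM), so the account below is largely one of the isozymes that other tissues share. Of the 32 enzymes found, 31 reached 5 CPM (exon reads of the gene for each 1000000 exon reads of the library) in 1 or more libraries, and PCK1, the enzyme that commits oxaloacetate to glucose synthesis, did not.

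The cells were satellite cells, the stem cells of skeletal muscle, taken from the breast muscle of 1-day-old turkeys and kept undifferentiated in culture for 2 weeks before they were divided into 3 cultures. In the differentiated culture the cells stayed attached and were given DMEM with 4% horse serum to fuse into myotubes. In the suspension culture they were grown under rotation for about 3 months in McCoy's medium with 15% chicken serum. The undifferentiated adherent culture stayed attached to gelatin, also in McCoy's medium with 15% chicken serum. RNA of 3 experiments was pooled into 1 library for each culture, so no comparison has a replicate, an SD or a p-value. The differences in basal medium, in serum and in time of culture cannot be told apart from those between the culture forms. No strain, sex or treatment beyond the culture itself was stated.

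Glycolysis breaks glucose down in the cytosol, and its later steps, from aldolase to pyruvate kinase, are those that yield ATP and pyruvate. Pyruvate can then be turned to lactate or can enter the mitochondria through pyruvate dehydrogenase, which the PDK kinases switch off, and be oxidised in the citrate cycle. Skeletal muscle adds glycogen as a store of glucose and the creatine kinase reaction as a fast source of ATP.

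The libraries headed Differentiating, Suspension and Adherent held 22816125, 23844835 and 17444865 exon reads, and 1 read was worth 0.0438, 0.0419 and 0.0573 CPM. The headings of the table contradicted each other. The deposited fold change headed for Suspension and Adherent equalled the count ratio of Adherent over Suspension in 100% of 12196 genes. That headed for Suspension and Differentiating instead equalled the ratio of the Adherent and Differentiating count columns, in 100% of 12207 genes. That headed for Adherent and Differentiating equalled the ratio of the Suspension and Differentiating count columns in 100% of 12154 genes. The columns headed Suspension and Adherent may therefore be exchanged, and each library is named below by the heading of its counts. If they are exchanged, every difference between those libraries changes sign and the comparisons of the library headed Differentiating with each of them trade places. Introns took 12.0%, 15.2% and 24.3% of gene reads in the libraries headed Differentiating, Suspension and Adherent.

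The markers of the labelled cell type were checked in the same libraries. The 10 satellite cell and muscle markers in the table summed to 3901 CPM in the library headed Differentiating, 10316 CPM in that headed Suspension and 11073 CPM in that headed Adherent, and 9 of the 10 were at least 2-fold lower in Differentiating than in Adherent (22.7% of all genes). Against Suspension, 8 of the 10 were at least 2-fold lower in Differentiating and 0 higher (14.5% and 9.16% of all genes). In Suspension over Adherent 2 of the 10 were at least 2-fold higher, PAX7 and DES, and 4 lower, MYF5, ACTA1, TNNC2 and MYBPC1 (21.6% and 20.0% of all genes). The 6 fibroblast markers, with most of their reads from collagens, summed to 57528, 16868 and 9132 CPM in the same order. No single endothelial or Schwann cell marker reached 5 CPM outside the library headed Adherent, where 4 of 4 endothelial markers did. The endothelial markers summed to 5.83, 3.94 and 355 CPM in Differentiating, Suspension and Adherent, and the Schwann cell markers to 0.745, 0.377 and 244 CPM. Leukocyte markers summed to 10.6, 13.5 and 107 CPM, adipocyte markers to 76.9, 23.4 and 225 CPM, and pericyte and smooth muscle markers to 1261, 528 and 638 CPM. The part of these markers in any difference below was not tested. In such bulk RNA, fewer cells of a type and less RNA per cell cannot be told apart.

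The enzymes as a group took more of the library headed Differentiating than of either other library. The 32 enzymes held 2.38% of exon reads in Differentiating, 1.97% in Suspension and 1.24% in Adherent, with 95% Clopper-Pearson intervals of 2.378 to 2.390%, 1.960 to 1.971% and 1.232 to 1.242%. These and all other intervals cover counting error only. The difference lay in lower glycolysis, whose 8 genes held 1.99%, 1.47% and 0.687% of exon reads. The 10 citrate cycle enzymes of the list held 0.132%, 0.170% and 0.186%. Together with 10 further genes of the cycle and its export of citrate and malate, they held 0.279%, 0.314% and 0.319%. The summed share of the 10 further genes was highest in Differentiating, although 5 of them were above Adherent there and 5 below. Among the 5 above were ACLY and ME1 of the cytosol, at 492 and 76.6 CPM in Differentiating and 191 and 6.76 CPM in Adherent.

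Counted gene by gene, a change was taken as a ratio of CPM of at least 2-fold. Between Differentiating and Adherent, 8 of the 31 enzymes were higher by this measure in Differentiating (25.8%, against 18.3% of the 11022 genes at 5 CPM) and 6 were lower (19.4%, against 22.7%). Between Suspension and Adherent, 8 were higher in Suspension (25.8%, against 21.6% of all genes) and 5 lower (16.1%, against 20.0%). Between Differentiating and Suspension, 2 were higher in Differentiating (6.45%, against 9.16%) and 3 lower (9.68%, against 14.5%). The median log2 ratio of the enzymes was −0.10, 0.15 and −0.11 in these comparisons, and that of all genes was −0.05, 0.15 and −0.18. In any of the 3 comparisons 17 of the 31 enzymes (54.8%) changed by at least 2-fold, against 55.1% of all genes, so the enzymes as a whole changed about as often as other genes. The comparisons share libraries and are not independent of each other. With TMM scaling in place of exon totals, the split between Differentiating and Adherent was 11 higher and 5 lower (22.5% and 19.6% of all genes), and that between Differentiating and Suspension was 3 higher and 2 lower (11.2% and 11.6% of all genes).

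**Figure D1:**
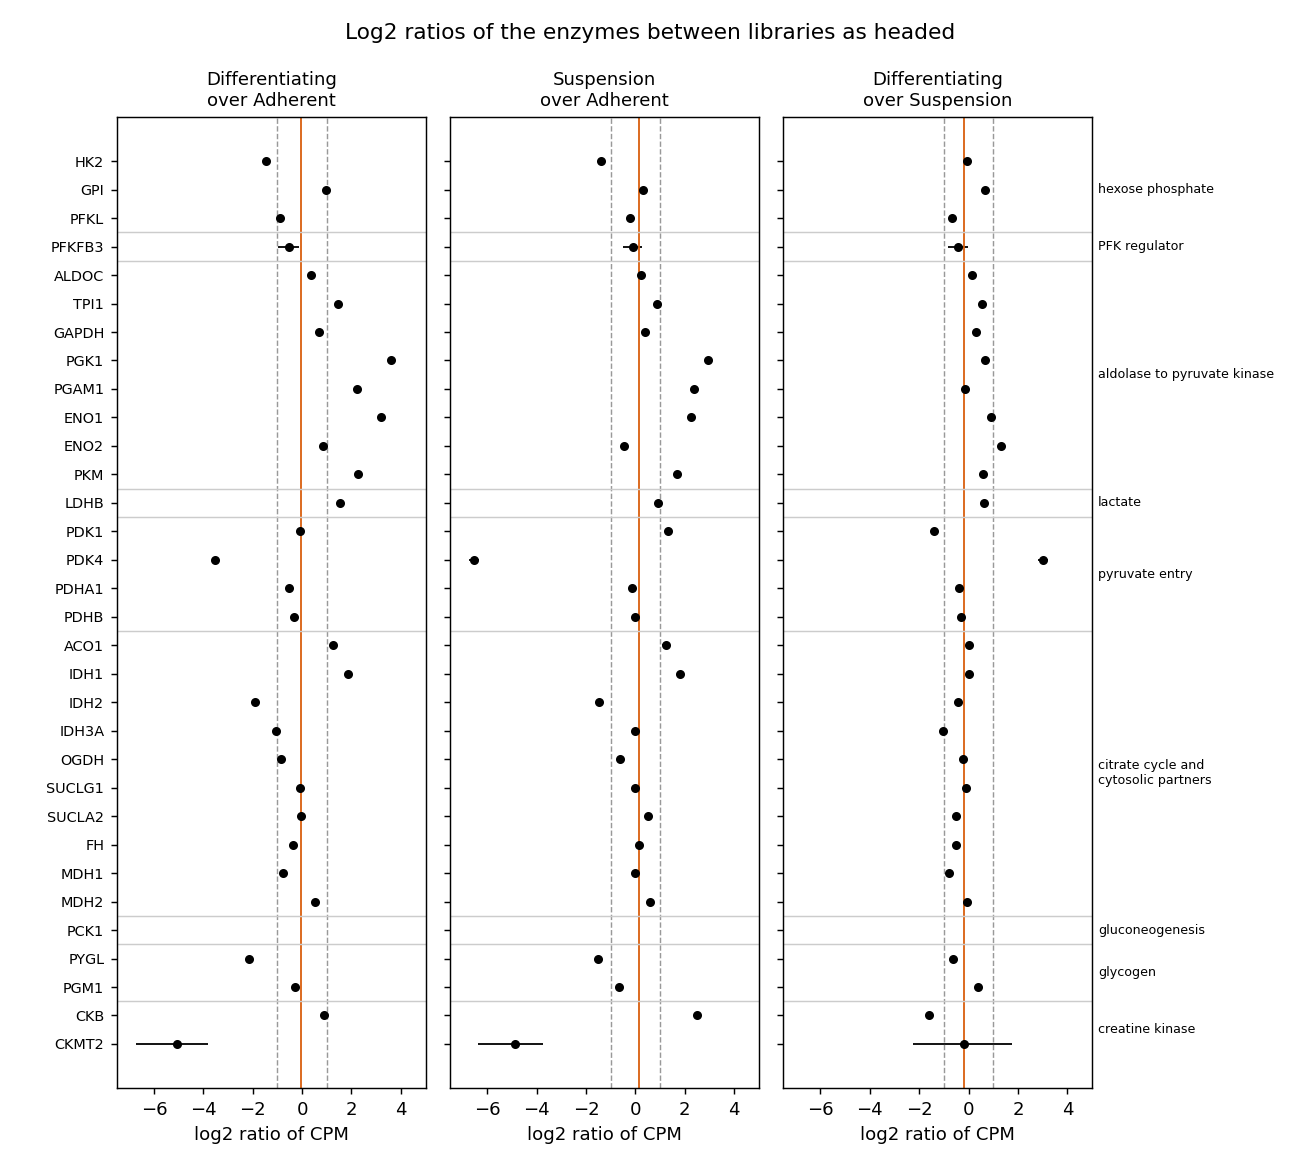
Log2 ratio of CPM of each of the 31 enzymes in Differentiating over Adherent, Suspension over Adherent and Differentiating over Suspension, with 95% intervals of counting error, dashed lines at 2-fold and an orange line at the median of all genes; PCK1 has no point. PGK1 and ENO1 lie farthest right and CKMT2 and PDK4 farthest left in the first panel, at log2 ratios of 3.61, 3.18, −5.09 and −3.52.

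Most of the enzymes had either of a pair of opposite orders of the 3 libraries, and members of a pathway fell on both sides. In 10 enzymes the level was highest in Differentiating and lowest in Adherent (32.3%, against 16.8% of all genes): GPI, ALDOC, TPI1, GAPDH, PGK1, ENO1, PKM and LDHB of glycolysis and lactate formation, and ACO1 and IDH1 of the cytosol. In 11 enzymes the order was the opposite (35.5%, against 23.4%): HK2, PFKL and PFKFB3 at the head of glycolysis, the pyruvate dehydrogenase subunits PDHA1 and PDHB, IDH2, IDH3A, OGDH, MDH1, the glycogen phosphorylase PYGL and the mitochondrial creatine kinase CKMT2. The other 10 enzymes had one of the 4 other orders. Levels of neighbours in these orders did not always differ beyond counting error: the intervals of the log2 ratio of Differentiating over Suspension included 0 for ACO1, IDH1 and CKMT2, as did those of Suspension over Adherent for PFKFB3, PDHB, IDH3A and MDH1. For GPI, ALDOC, TPI1, GAPDH, PGK1, ENO1, ENO2, PKM and LDHB, Differentiating was above both other libraries with both intervals clear of 0. For these genes the place of Differentiating does not rest on which of the other columns is which. The share of all genes that did the same was not counted, so no excess among the enzymes is claimed.

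**Figure D2:**
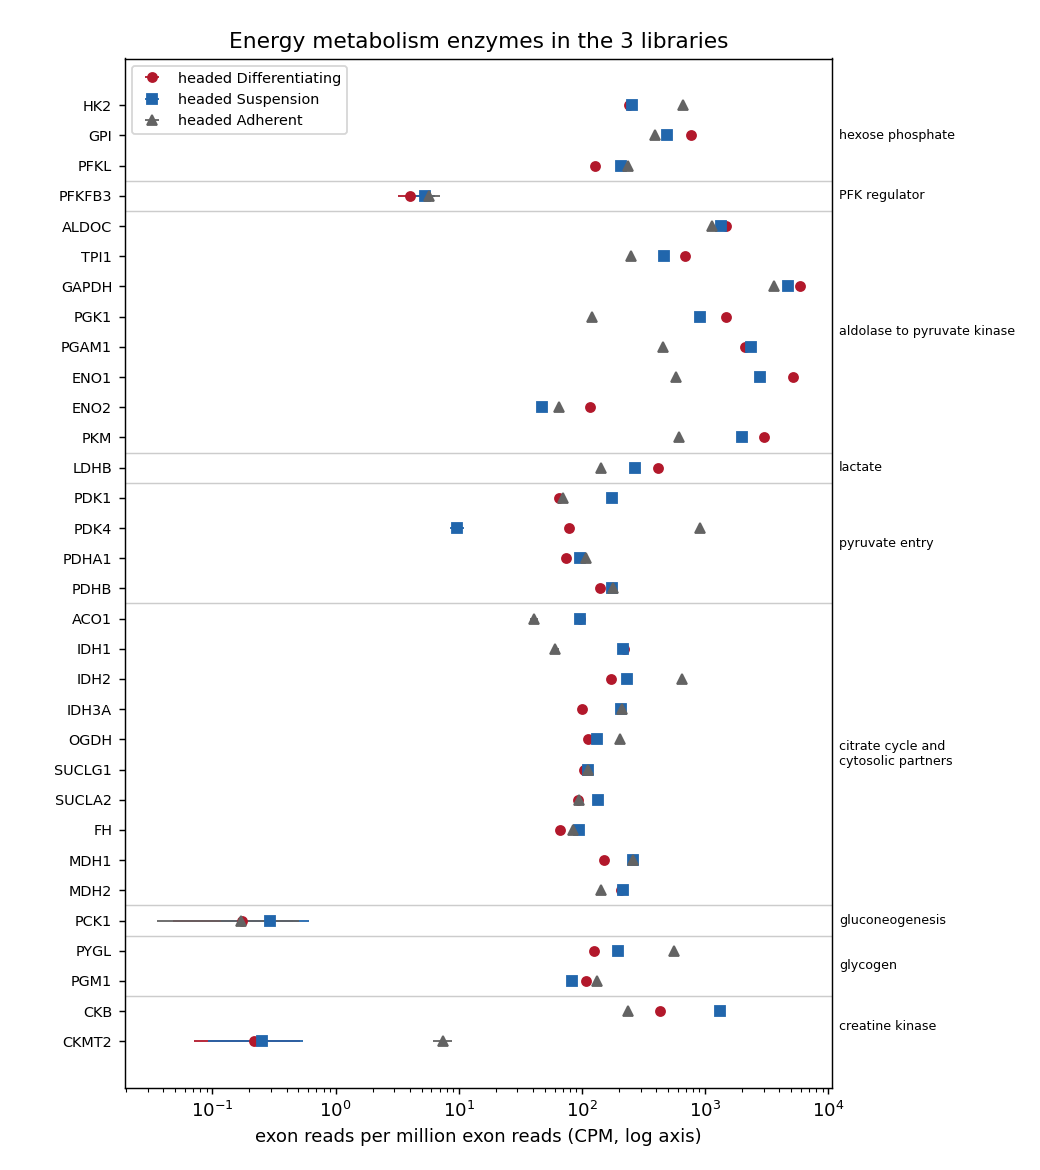
CPM, on a log axis, of each of the 32 enzymes in the libraries headed Differentiating, Suspension and Adherent, grouped by pathway, 1 point per library with its 95% Poisson interval. In lower glycolysis the points of Differentiating and Suspension lie together above that of Adherent for PGK1, PGAM1, ENO1 and PKM, and PCK1 and CKMT2 are at the low end of the scale.

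PGK1, ENO1, PGAM1 and PKM of later glycolysis set Adherent apart from both other libraries. PGK1 makes the first ATP of the pathway, and had 1467 CPM in Differentiating, 918 in Suspension and 120.0 in Adherent. Its log2 ratio was 3.61 in Differentiating over Adherent (95% interval 3.55 to 3.68) and 2.94 in Suspension over Adherent (2.87 to 3.00). ENO1, the enolase that most tissues use, had 5218 CPM in Differentiating, 2776 in Suspension and 577 in Adherent. This was the order of PGK1, with log2 ratios over Adherent of 3.18 (3.15 to 3.21) in Differentiating and 2.27 (2.24 to 2.30) in Suspension.

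PGAM1, the mutase between those enzymes, had 2111 CPM in Differentiating, 2363 in Suspension and 456 in Adherent. Here Suspension was highest, by a log2 ratio of Differentiating over Suspension of −0.16 (−0.18 to −0.15) that turned positive with TMM or median-of-ratios scaling. PKM, the pyruvate kinase gene of muscle and most other tissues, had 2989, 2002 and 619 CPM in Differentiating, Suspension and Adherent. Its log2 ratios over Adherent were 2.27 (2.24 to 2.30) in Differentiating and 1.69 (1.66 to 1.72) in Suspension. All of PGK1, PGAM1, ENO1 and PKM stayed at least 2-fold above Adherent in both other libraries under every scaling, pseudocount and read class tried.

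The steps before them differed less. TPI1, which interconverts the triose phosphates, had 684 CPM in Differentiating, 467 in Suspension and 253 in Adherent, a log2 ratio of 1.44 (1.39 to 1.48) in Differentiating over Adherent. GAPDH, often used as a reference gene for expression, had 5852, 4744 and 3631 CPM in the same order. Its log2 ratio was 0.69 (0.68 to 0.70) in Differentiating over Adherent and 0.39 (0.37 to 0.40) in Suspension over Adherent. Both were under 2-fold but above 0 under every scaling of the exon counts, and the first passed 2-fold with the deposited RPKM. The aldolase ALDOC had 1490.3, 1359 and 1148 CPM and thus a narrow range. GPI, which turns glucose phosphate into fructose phosphate, had 776 CPM in Differentiating, 488 in Suspension and 394 in Adherent, and its log2 ratio of 0.98 in Differentiating over Adherent fell just short of 2-fold, which it passed under each of the 4 other scalings.

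ENO2, the enolase of neurons, was the exception of its step. It had 117 CPM in Differentiating, 47.4 in Suspension and 64.9 in Adherent, so that Suspension and not Adherent was lowest. The log2 ratio was 1.31 (1.21 to 1.41) in Differentiating over Suspension and −0.45 (−0.57 to −0.33) in Suspension over Adherent. ENO1 exceeded ENO2 in reads per kilobase by 53.4 times in Differentiating, 70.3 times in Suspension and 10.7 times in Adherent.

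All 8 genes of lower glycolysis (ALDOC, TPI1, GAPDH, PGK1, PGAM1, ENO1, ENO2 and PKM) were above Adherent in Differentiating, beside 48.1% of all genes. Of the 8, 5 were at least 2-fold higher, beside 18.3% of all genes. Their median log2 ratio was 1.82, against −0.05 for all genes. In Suspension over Adherent 7 of 8 were above 0 and 4 were at least 2-fold higher, beside 55.6% and 21.6% of all genes. The median was 1.29, against 0.15 for all genes, and no scaling changed the direction of any of the 8. Between Differentiating and Suspension 7 of 8 were above 0, beside 37.6% of all genes, and with TMM or median-of-ratios scaling PGAM1 was too. The median was 0.56, against −0.18 for all genes. Only ENO2 passed 2-fold, beside 9.16% of all genes at least 2-fold higher. The ratio of ENO1, at 0.91, passed it with TMM, median-of-ratios and upper quartile scaling and with totals that left out the 10 most abundant genes. The summed CPM of the 8 was 2.90-fold higher in Differentiating than in Adherent, 2.14-fold higher in Suspension than in Adherent and 1.36-fold higher in Differentiating than in Suspension. The size of these sums rests on abundant genes. Without GAPDH the same ratios were 4.35, 3.07 and 1.42, and without ENO1 they were 2.34, 1.89 and 1.24.

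At the head of the pathway HK2 and PFKL did not follow the later steps, whereas GPI did. Only HK2 of these 3 passed 2-fold, and HK1, PFKM and PFKP were not analysed here. HK2, the hexokinase that traps glucose in muscle cells, had 241 CPM in Differentiating, 254 in Suspension and 662 in Adherent. Its log2 ratio over Adherent was −1.46 (−1.51 to −1.41) in Differentiating and −1.38 (−1.43 to −1.34) in Suspension, opposite in sign to GPI and to all 8 later genes in Differentiating. Between Differentiating and Suspension its ratio was −0.08 and became positive with the 4 other scalings and with the deposited RPKM. PFKL, the phosphofructokinase of liver, had 128, 207 and 238 CPM in Differentiating, Suspension and Adherent, with a log2 ratio of −0.89 (−0.96 to −0.83) in Differentiating over Adherent. PFKFB3, which makes the activator of phosphofructokinase, was scarce at 3.99, 5.37 and 5.79 CPM, and 67.0%, 67.2% and 35.6% of its exon reads were unique to the gene, so that its level is uncertain. On reads unique to a gene its sign against Adherent changed in both other libraries.

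**Figure D3:**
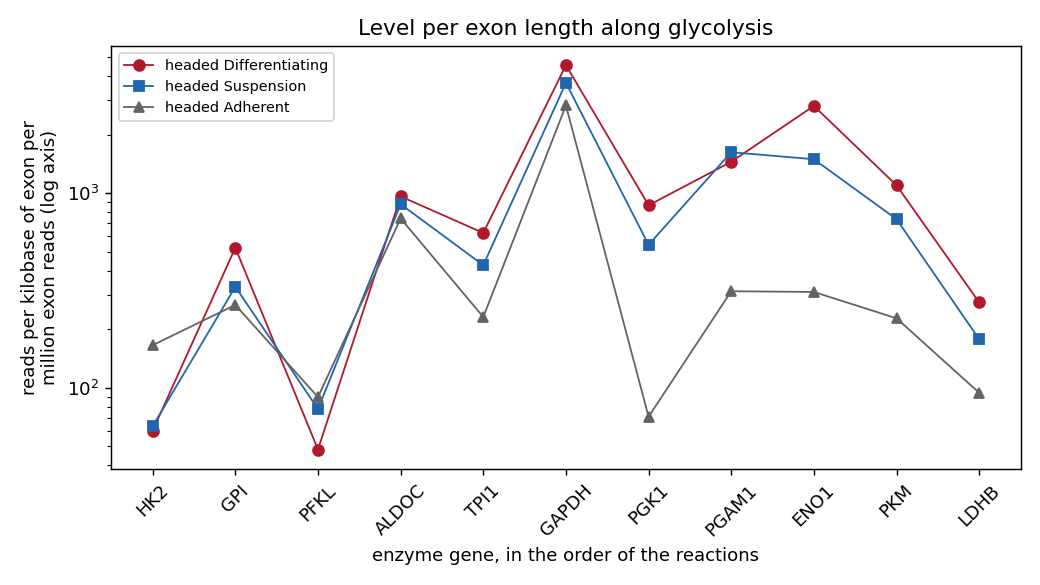
Reads per kilobase of exon, scaled to the exon reads of the library (RPKM) and on a log axis, of the glycolytic enzymes in the order of the pathway, with 1 line joining the points of each of the libraries headed Differentiating, Suspension and Adherent. Adherent is highest at HK2, at 165, and at PFKL, and the libraries are farthest apart at PGK1, at 867, 543 and 70.9.

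Set side by side per kilobase of exon within a library, the reads of the later enzymes stood in other proportions. ENO1 was 46.7 times HK2 in Differentiating, 23.6 times in Suspension and 1.88 times in Adherent. PGK1 was 0.190 of GAPDH in Differentiating, 0.147 in Suspension and 0.0251 in Adherent, and ENO1 was 0.617, 0.405 and 0.110 of GAPDH. Such ratios within a library do not depend on the scaling between libraries. Ranked per kilobase among the 11022 genes, GAPDH stood at 6 in Differentiating, 4 in Suspension and 13 in Adherent. ENO1 stood at 12, 15 and 223 and PGK1 at 91, 116 and 1067, while HK2 stood at 1294, 1401 and 408.

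LDHB, the lactate dehydrogenase subunit of heart, was the only lactate dehydrogenase gene of the list that could be read. It had 417 CPM in Differentiating, 269 in Suspension and 143 in Adherent, an order shared with most of lower glycolysis. The log2 ratio over Adherent was 1.54 (1.48 to 1.61) in Differentiating and 0.92 (0.85 to 0.98) in Suspension, the second of which passed 2-fold with whole gene reads and with the deposited RPKM. Of the carriers of lactate and pyruvate, SLC16A3, the exporter of glycolytic cells, had 470.0 CPM in Differentiating, 252 in Suspension and 31.5 in Adherent. SLC16A7 had 0.438, 0.377 and 33.2 CPM in the same order. The carriers thus lay on opposite sides: the log2 ratios in Differentiating over Adherent were 3.90 for SLC16A3 and −6.25 for SLC16A7. SLC16A3 was 0.571, 0.494 and 0.0431 of SLC16A1, a carrier found in many tissues, per kilobase in Differentiating, Suspension and Adherent. LDHD, the mitochondrial dehydrogenase of D-lactate, had 5.87, 11.3 and 77.3 CPM.

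At the entry of pyruvate into mitochondria the kinases differed most, and each in its own way. PDK4, the kinase that fasting and fatty acids raise in muscle, had 78.6 CPM in Differentiating, 9.73 in Suspension and 902 in Adherent. The log2 ratio was −3.52 (−3.59 to −3.45) in Differentiating over Adherent, −6.53 (−6.73 to −6.35) in Suspension over Adherent and 3.01 (2.82 to 3.22) in Differentiating over Suspension. It is the enzyme with the widest range among those with at least 100 CPM in any library, and its 3 levels lie far apart. PDK1, a kinase that low oxygen raises in mammalian cells, had 65.2 CPM in Differentiating, 174 in Suspension and 69.6 in Adherent. It was highest in Suspension, with log2 ratios of 1.32 (1.23 to 1.42) over Adherent and −1.42 (−1.51 to −1.33) for Differentiating over Suspension.

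Per kilobase of exon, PDK4 was 0.517 of PDK1 in Differentiating (0.483 to 0.554), 0.0239 in Suspension (0.0209 to 0.0273) and 5.55 in Adherent (5.24 to 5.89). The leading kinase of this pair was therefore PDK1 in Differentiating and Suspension and PDK4 in Adherent. Subunits of the dehydrogenase that these kinases switch off varied little. PDHA1 had 73.9, 96.3 and 107 CPM and PDHB 141, 175 and 178 CPM in Differentiating, Suspension and Adherent, and their ratio per kilobase was 0.868, 0.910 and 0.997. Among the 7 other genes of pyruvate entry (the complex, its phosphatases and the mitochondrial carrier), PDP2, a phosphatase that switches the complex on, was 2-fold lower in Differentiating than in Adherent, at 16.0 and 32.7 CPM, with 24.8 CPM in Suspension. No other of the 7 reached 2-fold in a comparison. DLD, the subunit that reoxidises lipoamide, had 89.7, 141 and 176 CPM. MPC1, a subunit of the pyruvate carrier, had 98.4 CPM in Differentiating, 191 in Suspension and 116 in Adherent.

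Within the citrate cycle list, ACO1 and IDH1 were at least 2-fold above Adherent in both other libraries, and IDH2 was at least 2-fold below it. ACO1, the cytosolic aconitase that also binds iron-responsive RNA elements, had 97.2 CPM in Differentiating, 95.7 in Suspension and 41.0 in Adherent. IDH1, the cytosolic isocitrate dehydrogenase, had 218, 216 and 60.8 CPM. Both were alike in Differentiating and Suspension, with log2 ratios between those libraries of 0.02 (−0.06 to 0.11) for ACO1 and 0.01 (−0.04 to 0.07) for IDH1. IDH2, the mitochondrial NADP-dependent form, had 172 CPM in Differentiating, 233 in Suspension and 651 in Adherent. Its log2 ratios over Adherent, −1.92 (−1.97 to −1.87) in Differentiating and −1.49 (−1.53 to −1.44) in Suspension, were opposite to those of IDH1. Per kilobase, IDH2 was 0.887 of IDH1 in Differentiating, 1.21 times IDH1 in Suspension and 12.0 times in Adherent.

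IDH3A, a subunit of the NAD-dependent enzyme of the cycle proper, had 101 CPM in Differentiating, 208 in Suspension and 212 in Adherent. Its log2 ratio of −1.07 in Differentiating over Adherent and −1.05 in Differentiating over Suspension lay just past 2-fold, and fell within it under every other scaling but upper quartile scaling in the first comparison. The remaining 6 enzymes did not reach 2-fold in any comparison. OGDH, a subunit of the oxoglutarate dehydrogenase complex, was closest, at 112, 132 and 204 CPM. The malate dehydrogenases differed in order: the cytosolic MDH1 had 150.3, 259 and 259.7 CPM in Differentiating, Suspension and Adherent, and the mitochondrial MDH2 had 208, 218 and 143 CPM. Per kilobase, MDH1 was 0.562 of MDH2 in Differentiating, 0.923 in Suspension and 1.41 times MDH2 in Adherent. SUCLG1, SUCLA2 and FH had between 66.2 and 134 CPM in all 3 libraries, each highest in Suspension, although for SUCLG1 the difference between Suspension and Adherent lay within counting error.

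**Figure D4:**
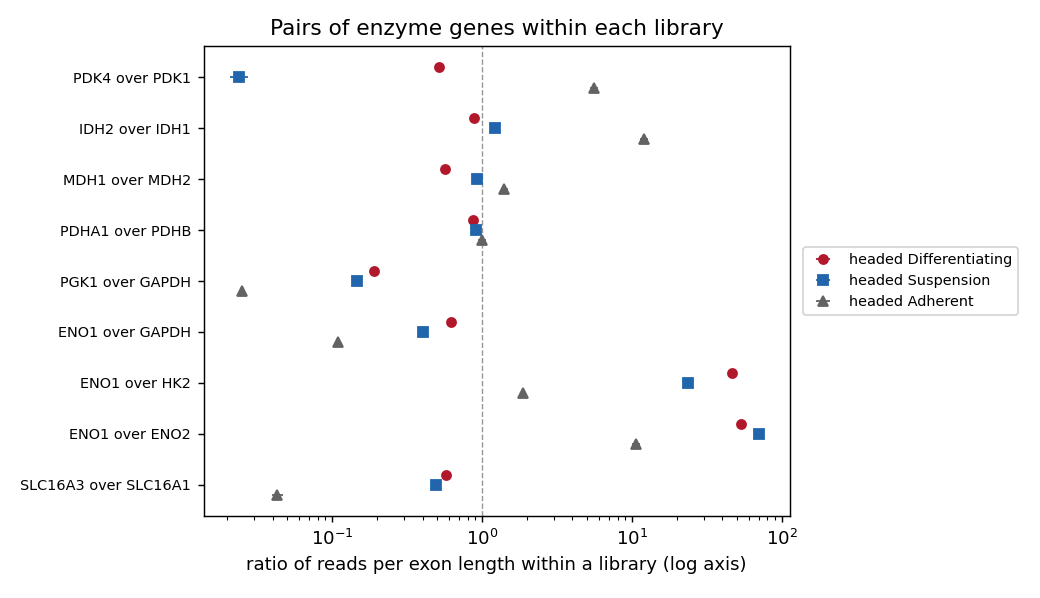
Ratio of the 2 genes of each pair within a library, per kilobase of exon and on a log axis, in the libraries headed Differentiating, Suspension and Adherent, with 95% intervals of counting error and a dashed line at 1. PDK4 over PDK1 lies at 0.517, 0.0239 and 5.55 and IDH2 over IDH1 at 0.887, 1.21 and 12.0, while PDHA1 over PDHB stays between 0.868 and 0.997.

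Of 10 further genes of the cycle and its export of citrate and malate, 2 were higher and 2 lower by 2-fold or more in Differentiating than in Adherent, 1 and 1 in Suspension against Adherent, and 1 and 0 in Differentiating against Suspension. Of all genes, 18.3% and 22.7%, 21.6% and 20.0%, and 9.16% and 14.5% were higher and lower in these comparisons, so the counts of the first and second were near the background. ME1, the cytosolic malic enzyme that supplies NADPH for lipid synthesis, had 76.6 CPM in Differentiating, 34.4 in Suspension and 6.76 in Adherent. In Adherent 81.0% of the reads on ME1 lay on introns, against 21.5% in Differentiating and 23.1% in Suspension. ACLY, which splits exported citrate, had 492, 283 and 191 CPM. Both genes were highest in Differentiating and lowest in Adherent. SUCLG2, a subunit of a succinate ligase, had 33.1, 31.8 and 67.3 CPM and ME3, a mitochondrial malic enzyme, had 17.7, 28.1 and 36.6 CPM. Of glucose synthesis, PCK1 had 4, 7 and 3 reads in Differentiating, Suspension and Adherent, and FBP1, a fructose bisphosphatase, had 3.73, 4.86 and 5.33 CPM. The other gene read with FBP1 was at least 2-fold lower in Differentiating and in Suspension than in Adherent.

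**Figure D5:**
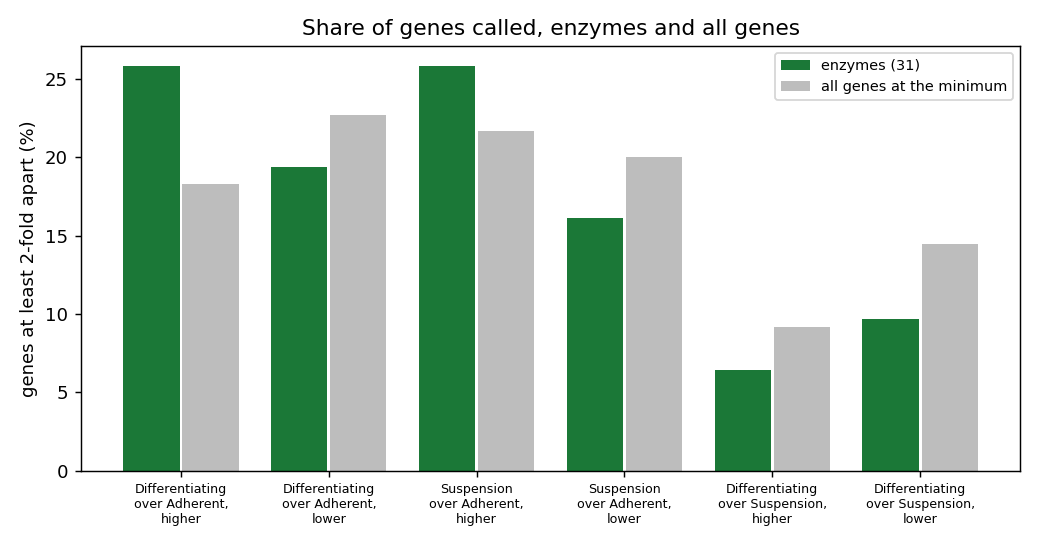
Share of genes at least 2-fold higher or lower, in percent, among the 31 enzymes and among all 11022 genes, in the comparisons Differentiating over Adherent, Suspension over Adherent and Differentiating over Suspension. The enzymes stand at 25.8% higher and 19.4% lower in the first, beside 18.3% and 22.7% of all genes.

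PYGL set Adherent apart among the glycogen enzymes. It is the liver form of glycogen phosphorylase and the only phosphorylase of the list that was read, and had 127 CPM in Differentiating, 198 in Suspension and 563 in Adherent. Its log2 ratios over Adherent were −2.15 (−2.21 to −2.09) in Differentiating and −1.51 (−1.56 to −1.46) in Suspension. PGM1, which links glucose phosphates to and from glycogen, had 109, 83.4 and 132 CPM and did not reach 2-fold. Of 12 further glycogen genes 10 had at least 5 CPM, and 2 of them were higher and 1 lower by 2-fold or more in Differentiating than in Adherent (18.3% and 22.7% of all genes). In Suspension over Adherent 1 was higher and 1 lower (21.6% and 20.0% of all genes), and in Differentiating over Suspension 2 were higher and 2 lower (9.16% and 14.5%).

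GYG1, the protein on which a glycogen particle starts, had 103 CPM in Differentiating, 109 in Suspension and 32.8 in Adherent, but only 34.4%, 31.8% and 30.5% of its exon reads were unique to it. The subunits that direct protein phosphatase to glycogen went in opposite directions. PPP1R3B had 31.9 CPM in Differentiating, 9.48 in Suspension and 7.68 in Adherent. PPP1R3C had 4.86, 2.14 and 30.3 CPM, highest in Adherent as PYGL was.

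The creatine kinases divided between Suspension and Adherent. CKB, the brain form, which muscle precursors use before the muscle form takes over, had 434 CPM in Differentiating, 1313 in Suspension and 235 in Adherent. The log2 ratio was 2.48 (2.44 to 2.53) in Suspension over Adherent, −1.60 (−1.63 to −1.56) in Differentiating over Suspension and 0.89 (0.84 to 0.94) in Differentiating over Adherent. The last of these passed 2-fold with TMM and median-of-ratios scaling, among others. CKMT2, the mitochondrial form of striated muscle, had 5 exon reads in Differentiating, 6 in Suspension and 130 in Adherent, or 0.219, 0.252 and 7.45 CPM. Its log2 ratio over Adherent was −5.09 (−6.73 to −3.83) in Differentiating and −4.89 (−6.36 to −3.73) in Suspension, with wide intervals from the few reads, and it dropped below 2-fold with a pseudocount of 10 CPM.

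The rest of the creatine route was read through 3 genes. GATM and GAMT, which make creatine in successive steps, had 3.68 and 12.7 CPM in Differentiating, 8.72 and 7.05 CPM in Suspension, and 45.1 and 40.4 CPM in Adherent. Both were thus highest in Adherent, as CKMT2 was. SLC6A8, which takes creatine up, had 264 CPM in Differentiating, 569 in Suspension and 344 in Adherent, highest in Suspension as CKB was. The sum of the muscle markers was also lower in Differentiating than in Adherent, and nerve, vessel and leukocyte markers were highest in Adherent; whether these bear on the genes highest in that library was not tested.

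Neighbouring routes of glucose were mixed. In the other glycolytic genes 5 of 6 had at least 5 CPM, and 3 of the 5 were at least 2-fold lower and none higher in Differentiating and in Suspension than in Adherent, beside 22.7% and 20.0% of all genes lower. Among them were LDHD, given above, and HK3, a hexokinase of blood cells, at 2.06, 4.03 and 13.2 CPM. The glucose carrier SLC2A1 had 206, 173 and 142 CPM, and SLC2A12 had 1.71, 9.39 and 2.47 CPM. In the pentose phosphate route, RPIA, the ribose phosphate isomerase, had 60.9 CPM in Differentiating, 39.9 in Suspension and 266 in Adherent. TKT, the transketolase, had 82.8, 22.6 and 61.4 CPM, lowest in Suspension, and PGD, which yields NADPH, had 86.2, 73.6 and 38.0 CPM.

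Hypoxia-inducible factor switches many glycolytic genes on in vertebrate cells, and 11 genes of its own axis were read beside them. In Differentiating over Adherent 4 were at least 2-fold higher and 2 lower, in Suspension over Adherent 2 and 3, and in Differentiating over Suspension 4 and 0, against 18.3% and 22.7%, 21.6% and 20.0%, and 9.16% and 14.5% of all genes. EGLN3, a prolyl hydroxylase that the factor induces, had 16.7 CPM in Differentiating, 11.0 in Suspension and 0.401 in Adherent. Introns took 15.5%, 28.9% and 98.1% of the reads on EGLN3, and its whole gene reads, 451, 370 and 378, show no such difference. P4HA1, a collagen prolyl hydroxylase that it also induces, had 421, 247 and 92.9 CPM and thus the order of ENO1. BNIP3, another of its targets, ran the other way at 67.3, 36.2 and 381 CPM. EPAS1, a related factor prominent in endothelium, had 11.8, 3.82 and 93.8 CPM, with 81.7%, 28.3% and 26.4% of its reads on introns. P4HA1 and BNIP3 thus lay on opposite sides of Adherent. BNIP3L had 369, 173 and 221 CPM, above Adherent in Differentiating and below it in Suspension. Of the 11 genes, 5 were above Adherent in Differentiating and 6 below, beside 48.1% of all genes above. The part of the factor in any of these levels was not tested.

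Of 9 regulators of growth and oxidative metabolism, 8 had at least 5 CPM, and 6 of these were at least 2-fold lower and none higher in Differentiating than in Adherent, where 22.7% of all genes were lower. In Suspension 4 of the 8 were at least 2-fold lower than in Adherent and none higher (20.0% of all genes lower), and 3 were lower and none higher in Differentiating than in Suspension (14.5% of all genes lower). PPARGC1A, a coactivator of mitochondrial genes, had 2.89 CPM in Differentiating, 16.6 in Suspension and 15.1 in Adherent. PPARGC1B, its relative, had 0.964, 3.27 and 21.3 CPM. PPARA, a receptor that drives fatty acid oxidation, had 7.28, 14.5 and 41.5 CPM and so had the order of PPARGC1B and IDH2.

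Reads on introns gave a second readout of the same genes. The median share of a gene's reads that lay on introns was 2.29% in Differentiating, 2.08% in Suspension and 5.02% in Adherent over the 31 enzymes, and 6.14%, 6.12% and 13.1% over all 11022 genes. The share was largest in Adherent for 25 of the 31 enzymes, beside 75.6% of all genes. HK2 had 5.29%, 4.76% and 17.4% and IDH1 2.40%, 2.76% and 13.0%, although the exon level of HK2 was highest and that of IDH1 lowest in Adherent. PYGL was an exception with 1.87%, 2.08% and 1.74%. FH, the fumarase, had the highest share of the enzymes with at least 10 CPM, at 26.8%, 15.3% and 37.4%, and CKMT2 had 54.5%, 45.5% and 21.2% on few reads.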

How the data were processed

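RNA of turkey satellite cells was sequenced as 1 pooled library for each of 3 cultures. The study's methods name bcl2fastq 2.20, STAR 2.5.2b, featureCounts and NOISeq. They also name the turkey genome and Ensembl annotation of the alignment, but the sources used here do not say whether the table came from that route or whether its positions use that build. In it, the deposited counts are unscaled exon reads per gene, with intron, whole-gene and unique reads beside them. The RPKM values of the authors divide those counts by exon length and a library denominator, and were used only as an alternative. A deposited signed score, the ratio of raw counts of a pair of libraries, served only to check the column headings, in genes with at least 10 reads, to within 0.02 on the log2 scale. Columns with the authors' tests were not used.

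Exon counts were divided by the exon reads of the library to give CPM (Python 3.11.15, pandas 2.3.3, scipy 1.17.1). Levels of different genes were compared only per kilobase of the deposited exon length. Calls required 2-fold or more between libraries and 5 CPM or more in any library, with no pseudocount. No ratio was taken with both counts at or under 3. Exact 95% intervals were Poisson for levels and Clopper-Pearson for ratios and shares. Ratios were tested on simulated data with known folds. The alternatives were TMM factors (edgeR 4.0.16 in R 4.3.3), median-of-ratios, upper quartile and trimmed totals, pseudocounts, other read classes, minimums and fold limits, and exchanged headings.

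The enzymes and lists were chosen with earlier results of these data known. Every enzyme with a 2-fold change was given its level in each library. From each other list, genes were taken from the 4 with the largest ratio and the 2 with the highest mean. Protein and promoter sequences were not analysed here, and some genes are not reported here. The study and its labels state no strand for the counts, so reads of overlapping genes cannot be told apart.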

Additional observations from a re-analysis of the deposited data

How the results depend on the processing

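With 1 library per group, calls depend on the limit and on the headings. At 1.5-fold, 6 enzymes were higher and 6 lower in Differentiating than in Suspension (15.2% and 25.7% of all genes). At 4-fold, 4 were higher and 3 lower in Differentiating than in Adherent (6.99% and 11.7% of all genes), 4 higher and 2 lower in Suspension than in Adherent (7.34% and 11.3%), and 1 higher and 0 lower in Differentiating than in Suspension (3.98% and 4.32%). With the headings Suspension and Adherent exchanged, Differentiating against Adherent had 2 higher and 3 lower (9.16% and 14.5% of all genes), Suspension against Adherent 5 and 8 (20.0% and 21.6%), and Differentiating against Suspension 8 and 6 (18.3% and 22.7%). The other scalings, pseudocounts, read classes and minimums kept each count of enzymes within 1.5 times, and no ratio past 2-fold changed sign. TMM scaling moved the median log2 ratio of all genes by 0.19 in Differentiating over Adherent, 0.02 in Suspension over Adherent and 0.17 in Differentiating over Suspension, and the deposited RPKM by 0.34, 0.25 and 0.08. Over all genes, Differentiating against Suspension had 1001 higher and 1580 lower as reported and 1221 and 1268 with TMM, and Differentiating against Adherent 2017 and 2501 as reported and 2668 and 1784 with RPKM. Enzymes with ratios near 0 changed sign with the scaling, among them HK2, PGAM1, SUCLG1 and MDH2 in Differentiating over Suspension. No paired analysis was possible because each group has 1 library, and for the same reason none could be left out. Depth limits CKMT2 and PCK1 most.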

Other observations

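ENO2, TPI1 and GAPDH lie near each other on chromosome 1 of the deposited table, with 5879 bases between ENO2 and TPI1 and 297970 bases between TPI1 and GAPDH, and their orders over the libraries differed: Suspension was lowest for ENO2 and Adherent for TPI1 and GAPDH. Introns took 15.7%, 12.3% and 0.702% of the reads on ENO2 in Differentiating, Suspension and Adherent, the opposite of the order over most genes. ACO1 and CKMT2 are placed on a chromosome named W in the deposited table, and the RefSeq annotation of Turkey_5.1 places both on Z. The same holds for 933 genes of the table, and 0 genes are on W in both.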
